A study of Mus musculus with 4 samples.

Results

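Aquaporins are membrane channels of the major intrinsic protein family, and 8 of their genes, Aqp1, Aqp3, Aqp4, Aqp5, Aqp7, Aqp8, Aqp9 and Aqp11, were followed here among the 26214 gene symbols counted in mouse colon tumours. The genes were picked from the family at a time when the contrast between the tumour groups was already known. Their levels and fold changes are therefore given as a description and support no test. The files list 12 genes of the family. The other 4, Mip, Aqp2, Aqp6 and Aqp12, had between 0 and 9 counts each over all libraries, and Aqp7, which was kept, also had 9. Tumours had been induced with AOM (azoxymethane, a carcinogen) and DSS (dextran sulfate sodium, an agent that causes colitis) in both groups. In the group labelled IEC+/+ the intestinal epithelial cells carry Gsk3b, and in the group labelled IEC-/- they are labelled as lacking it. There were 2 libraries of polyadenylated RNA from whole tumour tissue in each group. The Cre driver, the deleted exons, the strain and the age of the mice are not given in the sources used here, nor whether replicates are from different mice, so any p-value measures only the spread between these samples.

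Each aquaporin subunit forms its own pore, and water moves through it along the osmotic gradient that ion transport sets up. Orthodox aquaporins (here Aqp1, Aqp4, Aqp5 and Aqp8) conduct mainly water, and AQP8 also passes hydrogen peroxide and ammonia. Aquaglyceroporins (Aqp3, Aqp7 and Aqp9) conduct glycerol as well, and AQP11 is a divergent intracellular member. In the colon, surface epithelium absorbs sodium, chloride and short-chain fatty acids, and water follows them across the cells and between them.

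The pore is lined by a pair of short loops, each with an Asn-Pro-Ala box. The codons of these boxes are shown because they are what the members share and where Aqp7 and Aqp11 depart. The coding sequences below are 5′ to 3′ on the gene's own strand, from GENCODE M21 transcripts on GRCm38 (the assembly also called mm10), with the box codons in capitals and the glycine codon that opens the window in lower case.

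Aqp8 first box: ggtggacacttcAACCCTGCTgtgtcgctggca
Aqp8 second box: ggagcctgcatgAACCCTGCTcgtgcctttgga
Aqp1 first box: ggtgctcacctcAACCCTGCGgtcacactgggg
Aqp1 second box: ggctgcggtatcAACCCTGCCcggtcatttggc
Aqp3 first box: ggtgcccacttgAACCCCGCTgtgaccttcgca
Aqp3 second box: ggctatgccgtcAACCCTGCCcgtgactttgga
Aqp7 first box: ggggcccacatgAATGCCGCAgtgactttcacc
Aqp7 second box: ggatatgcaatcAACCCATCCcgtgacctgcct
Aqp11 first box: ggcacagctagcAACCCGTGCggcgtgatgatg
Aqp11 second box: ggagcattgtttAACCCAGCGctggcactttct

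The Aqp8 boxes lie in exons at chr7:123464190-123464222 and chr7:123466599-123466631 on the plus strand, at codons 92 and 210 of 261, and both use AACCCTGCT. Aqp1, shown as the member with the most RNA per length, and Aqp3, the aquaglyceroporin with the largest fold change, keep the canonical residues in both boxes. Aqp7 departs from them in both boxes and Aqp11 in the first, with AATGCCGCA and AACCCATCC in Aqp7 and AACCCGTGC in Aqp11. Aqp5 and Aqp9 have canonical codons in both boxes and are not shown, so the boxes do not separate orthodox aquaporins from aquaglyceroporins. In GRCm38 the genes lie on chromosome 7 at 123462291 to 123468004 (Aqp8, plus strand) and 97724006 to 97738289 (Aqp11, minus strand), on chromosome 4 at 41092722 to 41098183 (Aqp3) and 41033074 to 41048139 (Aqp7, both minus strand), on chromosome 6 at 55336432 to 55348555 (Aqp1, plus strand), on chromosome 15 at 99590782 to 99594829 (Aqp5, plus strand) and on chromosome 9 at 71110659 to 71168682 (Aqp9, minus strand).

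Total counts were 25472503 to 27218515 per library, and levels are given in CPM, the usual unit of counts scaled by library size. Gsk3b mRNA was at 170 and 157 CPM in IEC+/+ tumours against 152 and 149 in IEC-/- tumours, and since the labels do not give the deleted part and other cells are present, this does not check the labels. Markers of epithelium were present in every library but lower in IEC-/-. The 10 general epithelial genes, such as Epcam and Krt8, summed to 11597 and 10028 CPM in IEC+/+ and to 7080 and 6922 CPM in IEC-/-. Of these 10, 9 had a fold change below 0, 7 were lower at an unadjusted p under 0.05, and 0 were called by edgeR or limma-voom. DESeq2 and the exact test called 6 and 4 lower. IEC-/- replicate 2 stood apart in 2 marker lists: 12 squamous epithelial genes summed to 2729 CPM there against 50.5 to 215 CPM in the other libraries, and 10 neutrophil genes to 1270 against 112 to 235 CPM. In whole tissue, fewer cells of a type and less RNA per cell cannot be told apart.

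Of the 8 aquaporins, 7 passed the filter on low counts, and only Aqp8 was called changed in the fit across all 16637 genes tested (edgeR quasi-likelihood test, Benjamini-Hochberg adjusted p under 0.05). In that fit 147 genes were called, 0.884% of those tested; 0.763% were called lower and 0.12% higher in IEC-/-. Without either of the IEC+/+ libraries 0 genes were called, so every call named here rests on both. At an unadjusted p under 0.05, 2764 genes (16.6% of those tested) differed, 1517 lower and 1247 higher, and the list counts at that threshold are to be read against this share. Over all genes, DESeq2 called 1264 of 15890, the exact test of edgeR 882 of 16637 and limma-voom 78 of 16637. List counts by those tests are to be read against these totals, not against 0.884%. Because the contrast helped choose the members, nothing is read from their count. The groups did not overlap in CPM for 4 of the 7 (Aqp1, Aqp3, Aqp4 and Aqp8), while 48.1% of all genes tested had groups that did not overlap. The median log2 fold change, IEC-/- over IEC+/+, was -0.09 over the 7 genes and 0.01 over all genes tested.

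**Figure D1:**
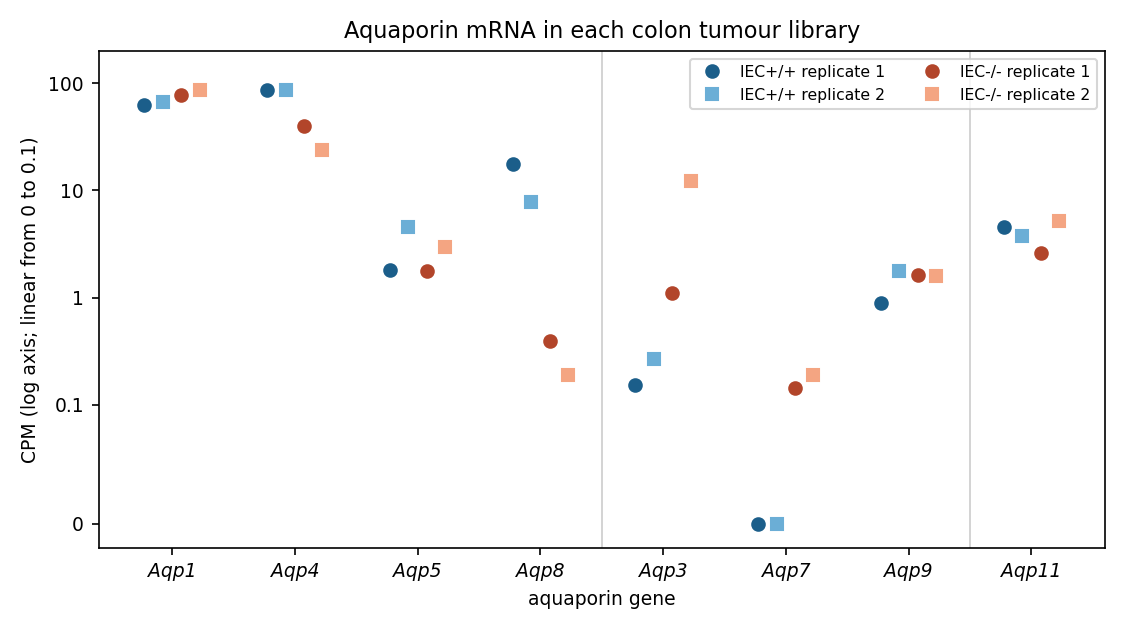
Level of each aquaporin in each library, in CPM on an axis that is logarithmic above 0.1 and linear from 0 to 0.1; circles are replicate 1 and squares replicate 2 of a group, and grey lines separate orthodox aquaporins, aquaglyceroporins and Aqp11. Aqp8 and Aqp4 are lower and Aqp3 is higher in both IEC-/- libraries, with Aqp3 spread from 1.11 to 12.3 CPM within IEC-/-.

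Aqp8, the water and hydrogen peroxide channel of absorptive surface epithelium in the colon, was nearly absent from the IEC-/- tumours. It was counted 454 and 205 times in IEC+/+ tumours but only 11 and 5 times in IEC-/- tumours, or 17.5 and 7.75 CPM against 0.395 and 0.190 CPM. The lower IEC+/+ library was still far above the higher IEC-/- library. Mean levels were 12.6 ± 6.90 CPM against 0.293 ± 0.145 CPM (SD, n = 2 each). The fitted log2 fold change was -5.40 (SE 0.63, edgeR adjusted p = 0.0413), with a 95% interval of the IEC-/- to IEC+/+ ratio from 0.00802 to 0.0700. With so few counts in IEC-/-, the level there is imprecise. Within IEC+/+, replicate 1 had 2.26 times the Aqp8 level of replicate 2. The call was lost without either IEC+/+ library (adjusted p = 0.414 without replicate 1 and 0.161 without replicate 2) and by limma-voom (0.103), and over all alternatives the adjusted p ran from 2.28e-15 to 0.414.

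Epithelial markers were lower in the same libraries, and some of them by about as much. Differentiated colonocyte genes summed to 9733 and 7238 CPM in IEC+/+ and to 1973 and 1705 CPM in IEC-/-. Of 18 such genes, 7 fell, 11 were not called by edgeR and 0 were higher even at an unadjusted p under 0.05, with a median log2 fold change of -2.66. DESeq2 and the exact test called 13 lower each and limma-voom 3. Clca4a, a calcium-activated chloride channel regulator, fell about as far as Aqp8, from 214 and 103 CPM to 3.13 and 5.03 CPM (log2 fold change -5.28, SE 0.46). Others that fell included Krt20, a keratin of surface colonocytes, at 327 and 239 CPM against 51.4 and 26.3 CPM, and Mep1a, a brush border protease, at 53.3 and 25.0 CPM against 4.28 and 3.54 CPM. Goblet cell genes summed to 5633 and 3526 CPM against 686 and 1416 CPM, and 2 of 10 fell by edgeR and limma-voom, against 6 lower by DESeq2 and 5 by the exact test. Set against the summed general epithelial markers, Aqp8 was at 1.51 and 0.773 CPM per 1000 CPM of those markers in IEC+/+ and at 0.0559 and 0.0275 in IEC-/-. Set against the summed colonocyte markers, of which Lypd8 alone was 5240 and 4212 CPM in IEC+/+, the values were 1.80 and 1.07 in IEC+/+ and 0.200 and 0.112 in IEC-/-. By either measure the groups stayed apart in the same order. The part of cell composition in the Aqp8 difference was not tested.

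Aqp4, the water channel of basolateral membranes, had the highest CPM of the family in IEC+/+ and was lower in IEC-/-, without being called. Its levels were 86.2 and 85.6 CPM in IEC+/+ against 39.9 and 23.8 in IEC-/-. The IEC+/+ libraries were nearly equal, with a ratio of 1.01 between them, and the IEC-/- libraries differed 1.68-fold. Mean levels were 85.9 ± 0.420 CPM against 31.8 ± 11.4 CPM (SD, n = 2 each), and the fitted log2 fold change was -1.43 (SE 0.25, ratio interval 0.240 to 0.573). DESeq2, the exact test of edgeR, the fit without a filter and the fits without either IEC-/- library called it lower, and over all alternatives its adjusted p ran from 1.01e-05 to 0.518. Per 1000 CPM of general epithelial markers Aqp4 had 7.43 and 8.54 CPM in IEC+/+ and 5.63 and 3.44 in IEC-/-. Per 1000 CPM of colonocyte markers the order was the other way round, with 8.86 and 11.8 in IEC+/+ and 20.2 and 14.0 in IEC-/-, so Aqp4 was lower by less than these markers. An antisense gene overlaps the span of Aqp4, and whether their exons overlap was not checked. Since no source used here states how strand was treated, any shared reads cannot be told apart. Enteric glia also express Aqp4 in some tissues, and their markers Sox10 and Gfap did not exceed 0.0757 and 0.270 CPM in any library. The 8 genes of their list summed to 6.67 and 9.08 CPM in IEC+/+ and to 21.5 and 22.9 CPM in IEC-/-. Sox2 alone was 14.3 and 13.7 CPM of the IEC-/- sums. Gfap and Cdh19, which did not pass the filter, were lower in IEC-/-. Gfap had 0.270 and 0.227 CPM against 0.108 and 0.0762, and Cdh19 had 0.270 and 0.151 against 0 and 0. All 3 tested genes had fold changes above 0. Of the 3 genes of that list that were tested, 1 rose, Sox2, from 3.55 and 3.78 CPM to 14.3 and 13.7 CPM, and 0 fell. Sox2 was not called by limma-voom (adjusted p = 0.0555) or with the replicate block (0.0571), and its adjusted p ran from 1.86e-08 to 0.426 over all alternatives.

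Aqp1, the water channel of endothelium and red cells, was the most abundant aquaporin per length in all 4 libraries. It was at 62.0 and 66.8 CPM in IEC+/+ and at 78.1 and 85.7 CPM in IEC-/-. Both IEC-/- libraries lay above both IEC+/+ libraries, by a small margin. Mean levels were 64.4 ± 3.37 CPM against 81.9 ± 5.40 CPM (SD, n = 2 each), and the fitted log2 fold change was 0.35 (SE 0.12, ratio interval 1.03 to 1.57), which was not called. Over the alternatives its log2 fold change was 0.27 to 0.46, and 0 of 12 called it. Endothelial genes such as Cdh5 and Vwf summed to 362 and 348 CPM in IEC+/+ and to 427 and 408 CPM in IEC-/-. Of 12 such genes, 0 were called by edgeR, DESeq2, the exact test or limma-voom (1 higher at an unadjusted p under 0.05), 12 had a fold change above 0, and the median was 0.23. Per 1000 CPM of these endothelial genes Aqp1 was at 171 and 192 CPM in IEC+/+ and at 183 and 210 CPM in IEC-/-, so that on this scale the groups overlapped. Erythroid genes summed to 476 and 1117 CPM in IEC+/+ and to 536 and 250 CPM in IEC-/-, in another order than Aqp1. Of 5 tested, 0 were called by edgeR, DESeq2, the exact test or limma-voom (0 at an unadjusted p under 0.05). The part of cell composition in the Aqp1 difference was not tested.

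Aqp5, a water channel of glands, was low and did not separate the groups. It was at 1.81 and 4.54 CPM in IEC+/+ and at 1.76 and 2.93 CPM in IEC-/-, with a 2.50-fold gap between the IEC+/+ libraries. The log2 fold change of -0.44 (SE 0.57) had a ratio interval of 0.276 to 1.98.

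Among the aquaglyceroporins Aqp3, a glycerol and water channel of basolateral membranes and of squamous epithelium, showed the widest spread. It was counted 4 and 7 times in IEC+/+ and 31 and 324 times in IEC-/-, or 0.154 and 0.265 CPM against 1.11 and 12.3 CPM. Both IEC-/- libraries were above both IEC+/+ libraries, but they differed 11.1-fold from each other. With 0.05 added to each CPM the ratio was 10.6, and 117 of all genes tested (0.703%) had one at least that large between the IEC-/- libraries. The fitted log2 fold change was 4.97 (SE 1.29, ratio interval 3.38 to 291) and was not called. Without IEC-/- replicate 2 it was 2.38 (adjusted p = 0.271); DESeq2, the exact test and the fit without IEC-/- replicate 1 called it higher, and the adjusted p ran from 6.46e-05 to 0.664 over all alternatives. The summed squamous markers were highest in the same library as Aqp3, although Krt15 was highest in IEC+/+ replicate 1 (63.7 CPM against 52.6 in IEC-/- replicate 2). Krt5, a basal keratin, had 0.193 and 10.4 CPM in IEC+/+, 0 in IEC-/- replicate 1 and 795 in IEC-/- replicate 2. In IEC-/- replicate 1, where the summed squamous level was the lowest of the 4 libraries at 50.5 CPM, Aqp3 was still above both IEC+/+ libraries. Of 10 squamous genes tested 0 were called by edgeR, DESeq2, the exact test or limma-voom (0 at an unadjusted p under 0.05), with a median log2 fold change of 2.16. Single libraries decided this count: without IEC-/- replicate 1, 7 were called higher, and without IEC-/- replicate 2, 3 were called lower. With the replicate block 1 was called higher. Their part in the Aqp3 level was not tested.

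Aqp7, the glycerol channel of adipocytes, was listed at 0 in both IEC+/+ libraries and counted 4 and 5 times in IEC-/-. It did not pass the filter. Against a floor of 3 counts over the IEC+/+ group, its level in IEC-/- was 2.90-fold higher, on 9 counts in all. Those 9 counts were taken without their own error, so 2.90 is not a lower limit. The adipocyte markers Adipoq, Plin1 and Lep were at 0 in all 4 libraries, and the 8 genes of that list summed to 6.13 to 9.17 CPM, of which 0 of the 3 tested were called by edgeR, DESeq2, the exact test or limma-voom (0 at an unadjusted p under 0.05).

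Aqp9, the glycerol and urea channel of liver and leukocytes, was at 0.887 and 1.78 CPM in IEC+/+ and at 1.62 and 1.60 CPM in IEC-/-. The IEC-/- libraries were nearly equal and lay between the IEC+/+ libraries (fitted log2 fold change 0.27, SE 0.52, ratio interval 0.491 to 2.96). It did not follow the neutrophil list, which was highest in IEC-/- replicate 2; among its 9 tested genes 1, Ly6g, fell, and 8 were not called. Ly6g ran against the rest of the list, as the other 8 had fold changes above 0 and the median log2 fold change was 1.47. Macrophage genes summed to 502 and 392 CPM in IEC+/+ and to 632 and 518 CPM in IEC-/-, with 0 of 10 called by edgeR, DESeq2, the exact test or limma-voom (3 higher at an unadjusted p under 0.05). A pair of opposite-strand gene models overlap the span of Aqp9. Whether they share exon with it was not checked, and any shared reads cannot be told apart.

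Aqp11, the divergent member of the endoplasmic reticulum, was at 4.51 and 3.78 CPM in IEC+/+ and at 2.62 and 5.18 CPM in IEC-/-, so that the IEC+/+ libraries lay within the range of the IEC-/- libraries. The log2 fold change was -0.09 (SE 0.43, ratio interval 0.446 to 1.98).

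**Figure D2:**
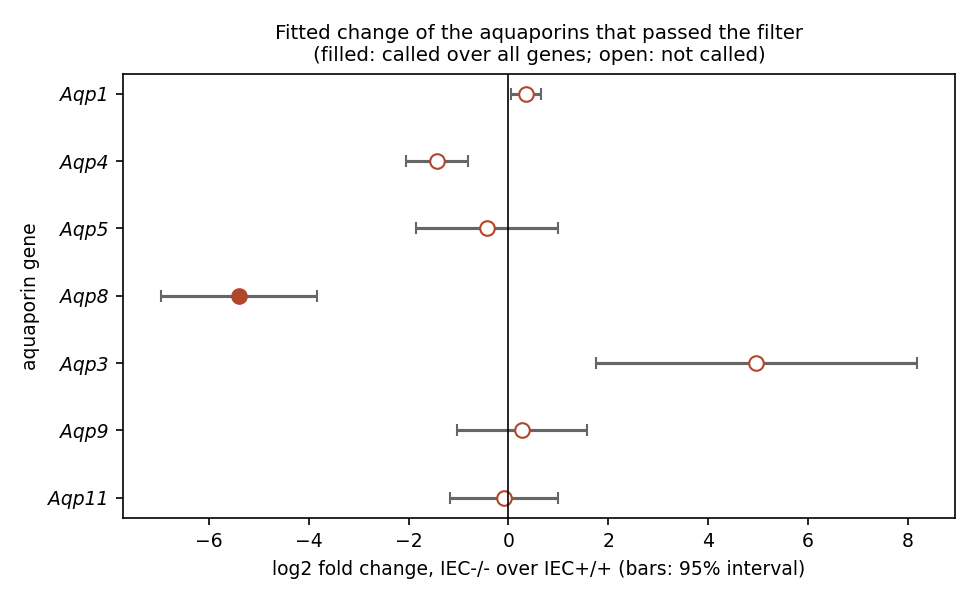
Fitted log2 fold change, IEC-/- over IEC+/+, of the 7 aquaporins that passed the filter, with 95% intervals as bars; the filled point was called over all genes tested. Aqp8 lies at -5.40 and Aqp4 at -1.43, and Aqp3 at 4.97 has the widest interval.

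Levels can be compared between genes only per length, so CPM was divided by the kilobases of annotated exon, a length that depends on which isoforms are annotated. On this scale the order in IEC+/+ was Aqp1 (24.5 ± 1.28), Aqp4 (13.8 ± 0.0674), Aqp8 (7.99 ± 4.37), Aqp5 (1.22 ± 0.742), Aqp11 (0.440 ± 0.0549), Aqp9 (0.322 ± 0.152) and Aqp3 (0.115 ± 0.0427 CPM per kb; mean ± SD, n = 2 for each), with Aqp7 listed at 0. The per-library values of Aqp11 and Aqp9 overlapped there, so the order of that neighbouring pair is not set. In IEC-/- the order was Aqp1 (31.2 ± 2.06), Aqp4 (5.11 ± 1.82), Aqp3 (3.68 ± 4.34), Aqp5 (0.903 ± 0.319), Aqp11 (0.414 ± 0.192), Aqp9 (0.388 ± 0.00312), Aqp8 (0.185 ± 0.0917) and Aqp7 (0.0591 ± 0.0117 CPM per kb; mean ± SD, n = 2 for each). Aqp3 overlapped its neighbours Aqp4 and Aqp5 in that group, and Aqp9 overlapped Aqp11.

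The 12 family genes together summed to 50.1 and 46.8 CPM per kb in IEC+/+ and to 38.5 and 45.5 CPM per kb in IEC-/-. The total was thus lower in both IEC-/- libraries by a small margin, while its make-up differed more. Aqp1 made up 47.2% and 54.3% of it in IEC+/+ and 77.2% and 71.7% in IEC-/-. Aqp4 and Aqp8 together made up 49.8% and 39.8% in IEC+/+ and 17.3% and 8.65% in IEC-/-. Aqp3 contributed 14.8% in IEC-/- replicate 2 and at most 1.58% in the other libraries. Within IEC+/+ the level of Aqp4 per kb was 1.25 and 2.80 times that of Aqp8, and within IEC-/- it was 25.6 and 31.7 times.

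**Figure D3:**
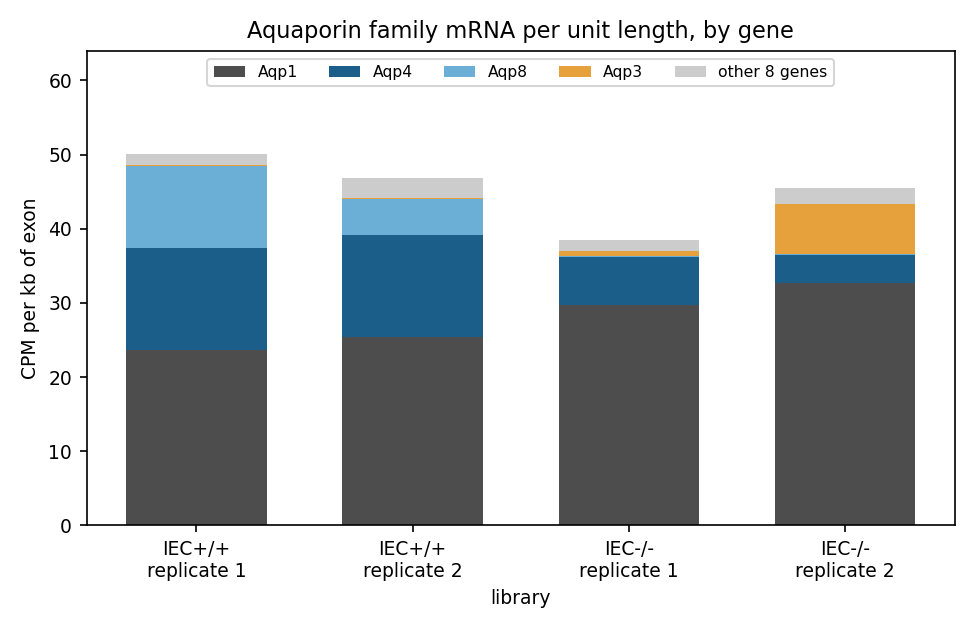
Summed level of the 12 family genes in each library in CPM per kb of exon, stacked by gene, with bars starting at 0. Aqp8 and Aqp4 take a smaller part in both IEC-/- libraries, and Aqp3 is visible mainly in IEC-/- replicate 2.

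Water follows ions, and the 38 genes of a list of colonic ion and fluid transport all passed the filter. Of these, 4 fell, 0 rose and 34 were not called by edgeR; at an unadjusted p under 0.05, 17 were lower and 1 was higher. DESeq2 and the exact test called 15 lower each, limma-voom 1, and all of them 0 higher. Over all genes, in both directions, these tests called 1264 of 15890, 882 of 16637 and 78 of 16637. The median log2 fold change was -0.32. Slc26a3, Car1, Car4, Slc5a8, Guca2a and Guca2b are also in the colonocyte list, so the lists are not separate. The 4 that fell were Slc5a8, a sodium-coupled transporter of short-chain fatty acids, at 95.8 and 50.4 CPM against 6.44 and 9.14 CPM (fitted log2 fold change -3.23, SE 0.37, edgeR adjusted p = 0.0413); Atp12a, the colonic proton-potassium pump, at 137 and 98.1 CPM against 22.0 and 10.8 CPM (-2.84, SE 0.37, 0.0479); Car2, a cytosolic carbonic anhydrase, at 245 and 174 CPM against 77.1 and 73.8 CPM (-1.47, SE 0.19, 0.0472); and Slc16a1, a monocarboxylate transporter, at 132 and 119 CPM against 50.2 and 57.4 CPM (-1.22, SE 0.13, 0.0413). The groups did not overlap for any of these 4, nor for 48.1% of all genes tested. Within the list they did not overlap for 23 genes lower and 3 genes higher in IEC-/-. Without either IEC+/+ library 0 of the list were called, and without IEC-/- replicate 1 or 2 the count was 12 and 10; with the replicate number as a block it was 8.

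Other members of that list had fold changes as large without being called. Slc26a3, the chloride-bicarbonate exchanger of surface colonocytes, was at 34.9 and 14.3 CPM in IEC+/+ and at 0.611 and 1.90 CPM in IEC-/- (fitted log2 fold change -4.29, SE 0.70). Car4, a membrane-bound carbonic anhydrase, had 44.5 and 15.4 CPM against 0.503 and 1.26 CPM (-5.09, SE 0.72). By contrast Slc9a3, the apical sodium-proton exchanger, had 364 and 469 CPM against 398 and 495 CPM, and Slc12a2, the basolateral cotransporter that loads chloride for secretion, had 478 and 676 CPM against 625 and 625 CPM, with overlapping groups in both. Cftr, the chloride channel of secretion, had 50.4 and 36.1 CPM against 32.9 and 33.9 CPM (-0.37, SE 0.19, not called). The subunits of the epithelial sodium channel had values of both signs, with Scnn1a at -1.42 (SE 0.27), Scnn1b at 0.70 (SE 0.28) and Scnn1g at 0.03 (SE 0.51), none of them called.

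**Figure D4:**
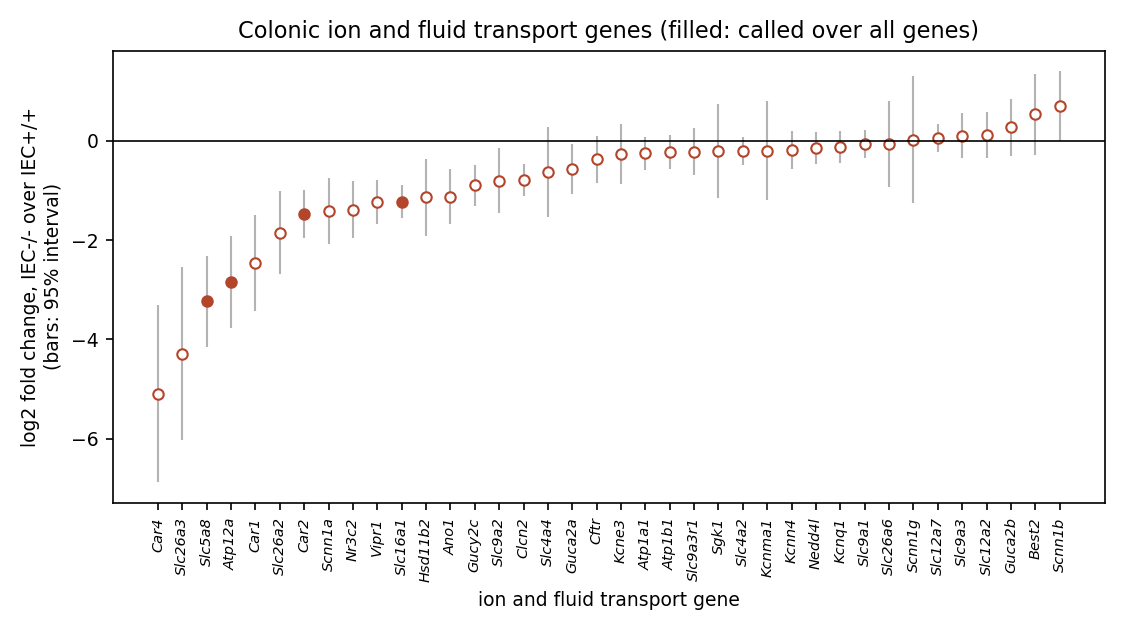
Log2 fold change, IEC-/- over IEC+/+, of the 38 ion and fluid transport genes in order of size, with 95% intervals; filled points were called over all genes tested. The 4 called genes are Slc5a8, Atp12a, Car2 and Slc16a1, and 31 of the 38 values lie below 0.

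Genes that make, use or release glycerol, the second substrate of Aqp3, Aqp7 and Aqp9, had no common direction. Of 15 tested, 0 were called by edgeR or limma-voom (at an unadjusted p under 0.05, 2 were higher and 3 lower), DESeq2 called 1 higher and 3 lower, and the exact test 2 lower. The median log2 fold change was 0.01, as over all genes. Pck1, an enzyme of glyceroneogenesis, was at 14.3 and 6.70 CPM in IEC+/+ and at 0.791 and 1.18 CPM in IEC-/- (fitted log2 fold change -3.41, SE 0.51). Gk, glycerol kinase, had 51.9 and 52.6 CPM against 18.1 and 35.3 CPM (-0.97, SE 0.31), and Pgp, a glycerol phosphate phosphatase, had 120 and 113 CPM against 61.4 and 75.4 CPM (-0.77, SE 0.14). Gpam, an acyltransferase of glycerolipid synthesis, had a value of 0.63 (SE 0.17).

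The dystrophin complex anchors AQP4 in membranes of glia and muscle. Of its 11 genes tested, 0 were called by edgeR or limma-voom (at an unadjusted p under 0.05, 2 were higher and 0 lower), and DESeq2 and the exact test each called 2 higher. Sntb1, a syntrophin, was at 5.32 and 5.71 CPM in IEC+/+ and at 17.9 and 14.4 CPM in IEC-/- (fitted log2 fold change 1.55, SE 0.24), and Dtna, a dystrobrevin, had 6.94 and 6.13 CPM against 18.7 and 12.9 CPM (1.27, SE 0.27). Dtnb and Sntb2 had log2 fold changes of 0.43 and 0.42 (SE 0.20 and 0.23). Of the 11 values, 7 were above 0.

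The genes whose profiles were most like Aqp8, Aqp4 and Aqp3 over the 4 libraries were found by the Euclidean distance between centred log2(CPM + 0.1) values among 15141 genes averaging at least 1 CPM. With 4 libraries such a likeness is a description. Closest to Aqp8 was Sycn, a secretory granule gene, at a distance of 0.687, at 29.3 and 23.3 CPM in IEC+/+ and at 1.22 and 0.762 CPM in IEC-/-. Next came Slc13a2os (0.979), Ly6m (1.04), Clca4a (1.05) and Gsdmc3 (1.07). Distances to Aqp4 were shorter, on profiles centred but not scaled, so distances for different aquaporins do not rank their likeness. Tmem253 came first at 0.0842, then Pigr, the receptor that carries immunoglobulin A across epithelium, at 0.0881, with 2150.5 and 2109 CPM against 1063 and 617 CPM. Ankdd1b (0.141), Nr3c2 (0.152) and Kremen2 (0.168) followed. Nr3c2, the mineralocorticoid receptor, had 52.5 and 47.2 CPM against 23.0 and 15.04 CPM and was not called (fitted log2 fold change -1.39, SE 0.23). Closest to Aqp3 were Apoa5 (0.578), Adgrf4 (0.710), Zp2 (0.767), Sv2b (0.789) and Pabpc1l2b (1.05), each highest in IEC-/- replicate 2; Adgrf4 was at 0.154 and 0.303 CPM in IEC+/+ and at 0.611 and 12.0 CPM in IEC-/-.

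**Figure D5:**
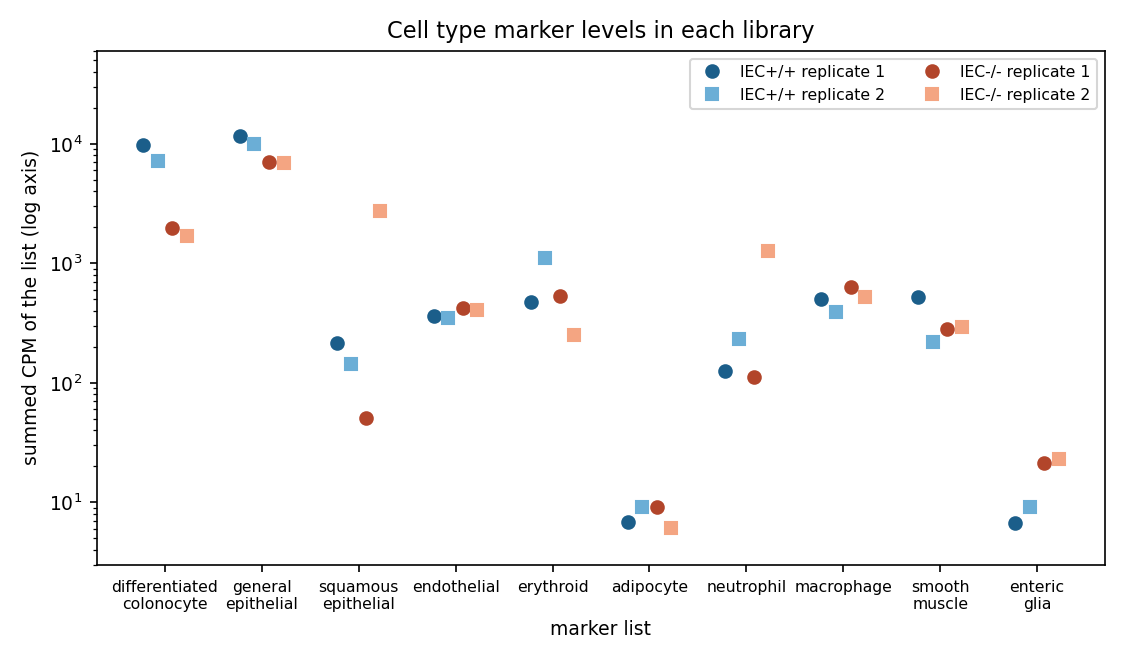
Summed CPM of 10 cell type marker lists in each library on a logarithmic axis; circles are replicate 1 and squares replicate 2 of a group. Colonocyte markers are lower in both IEC-/- libraries, endothelial markers slightly higher, and squamous and neutrophil markers stand out in IEC-/- replicate 2.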

How the data were processed

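Each of the 4 deposited files holds raw read counts, whole numbers by gene symbol, for 1 library. The submitters' processing notes name TopHat, edgeR, limma and the mm10 build, without versions or roles; the counting tool, annotation and use of strand are not given in the sources used here. Groups came from the sample titles. The members and gene lists were chosen with earlier results of these data known. Counts were scaled by TMM (factors 0.955 to 1.05), filtered by the default of edgeR with the group, and compared between groups by its quasi-likelihood test (edgeR 4.0.16, R 4.3.3), with p-values adjusted over all 16637 genes tested. Standard errors follow from the F statistic, and intervals cover 95%. The test was also run on counts simulated with the same spread in both groups, a setting these libraries need not share. Lists are described by counts and medians; 1 list gene had no row in the files. Of the dystrophin complex, 1 gene is not reported here. Named genes were the family, Gsk3b, in each pathway list the called genes or, where none was called, the 4 with the smallest p, and the 5 nearest profiles of each aquaporin of at least 1 CPM and a log2 fold change beyond 1 in size; a few others were chosen after their values were seen (Slc26a3, Car4, Slc9a3, Slc12a2, Cftr, the Scnn1 genes, Duox2, Prdx6 and every marker gene named). Exon lengths and coordinates are from GENCODE M21. Replicates differed by more than sampling noise (chi-square per degree of freedom 33.8 and 66.6 within groups). Alternatives were other scalings, filters and tests (DESeq2 1.42.0, limma 3.58.1), leaving out each library, and a replicate block.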

Additional observations from a re-analysis of the deposited data

How the results depend on the processing

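The number of genes called, 147, became 83 with no scaling factor (which moved the median of all genes to a log2 of 0.12), 376 with no filter, 1264 in DESeq2, 882 in the exact test and 78 in limma-voom, and it ran from 0 to 729 when a library was left out (0 without either IEC+/+ library, with 1384 and 1754 genes at an unadjusted p under 0.05). The lone library is then assumed to vary like the others. The number of aquaporins called, 1, was 2 with no filter, 3 by DESeq2 and by the exact test, 0 by limma-voom, and 0 to 3 with a library left out. For the ion and fluid transport genes, 4 lower calls became 2 with no scaling factor, 12 with no filter, 15 by DESeq2 and by the exact test, 1 by limma-voom and 8 with the replicate block, and 0 to 12 with a library left out. Alternatives were followed for 35 genes: the tested aquaporins, the nearest profiles of Aqp8, Aqp4 and Aqp3, and the called list genes other than Cybb and Duoxa2. Of their 420 values, 318 kept both direction and call, 55 lost the call, 42 gained it and 5 changed sign. Those 5 were log2 fold changes of Aqp5 without IEC+/+ replicate 2 (0.37), Aqp9 without IEC+/+ replicate 1 (-0.15) and Aqp11 with no scaling factor (0.017), without IEC+/+ replicate 1 (0.04) and without IEC-/- replicate 1 (0.31); the cause was not tested. With a library left out, Aqp5 ran from -0.95 to 0.37, Aqp9 from -0.15 to 0.85 and Aqp11 from -0.66 to 0.31.

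The labels share replicate numbers without stating a pairing, and the correlation of same-numbered deviations was 0.161 across genes. With the replicate block 211 genes and 1 aquaporin were called.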

Other observations

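Genes that make or remove hydrogen peroxide, a second substrate of AQP8, had 14 fold changes below 0 and 4 above. Of 18 tested, 1 rose and 1 fell by edgeR (at an unadjusted p under 0.05, 1 was higher and 5 were lower; DESeq2 called 1 and 5, the exact test 1 and 3, limma-voom 0 and 1), with a median log2 fold change of -0.11. Cybb, the oxidase subunit of phagocytes, rose from 27.9 and 27.3 CPM in IEC+/+ to 56.2 and 64.7 CPM in IEC-/- (fitted log2 fold change 1.13, SE 0.13, edgeR adjusted p = 0.0413). Duoxa2, the maturation factor of the epithelial dual oxidase, fell from 102 and 111 CPM to 36.7 and 26.7 CPM (-1.75, SE 0.18, 0.0413). Duox2 itself had 379 and 327 CPM against 146 and 93.4 CPM (-1.56, SE 0.24) and was not called. Prdx6, a peroxiredoxin, had 968 and 634 CPM against 235 and 285 CPM (-1.62, SE 0.23, not called). Macrophage markers summed to 392 to 502 CPM in IEC+/+ against 518 to 632 in IEC-/-, and their part in the Cybb level was not tested.

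Immediate-early and heat shock genes, listed as possible signs of sample handling, summed to 1928 and 2588 CPM in IEC+/+ and to 1361 and 1317 CPM in IEC-/-. Of 13 tested, 0 were called by edgeR or limma-voom. At an unadjusted p under 0.05, 6 were lower, where 1517 of all 16637 genes were lower. DESeq2 and the exact test called 5 and 4 lower. The part of handling in these levels was not tested. Smooth muscle genes summed to 527 and 222 CPM in IEC+/+ against 282 and 291 in IEC-/-, highest in the IEC+/+ library where Aqp8 was also highest; 0 of 10 were called by edgeR, the exact test or limma-voom (2 lower at an unadjusted p under 0.05), and DESeq2 called 1 lower.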
